A study of Mus musculus with 9 samples.

Results

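The comparison set mice given indole-3-propionic acid (IPA) by gavage against mice on the same high-fat diet alone (HFD). It was chosen by the treatment labels and took 6 of the 9 RNA-seq libraries of the series, 3 per group. All mice ate a high-fat diet for 12 weeks. The IPA group was also gavaged once a day over those weeks with 100 mg of IPA per kg of body weight in saline, and the remaining 3 libraries (Trp) came from mice whose high-fat diet carried 0.5% added tryptophan. The labels do not say whether the HFD mice received a saline gavage, nor do they give strain, sex or age. They number 3 mouse libraries per group and say no more of the animals, so p-values measure the spread between these libraries, which may be technical.

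IPA is made from dietary tryptophan by gut bacteria that remove its amino group, and it reaches the blood from the intestine. It is known as a ligand of the pregnane X receptor and of the aryl hydrocarbon receptor, which switch on genes of xenobiotic metabolism, and as a scavenger of hydroxyl radicals. The hippocampus, the tissue named on the labels, consists of the dentate gyrus and the CA fields and is known for its part in memory and for its dense glucocorticoid receptors.

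Markers of other brain regions were present in every library. Per transcript length, Prox1, which marks dentate granule cells, stood at 1.24 to 4.67 FPKM (fragments scaled to transcript length and library size) over the 6 libraries, whereas Ppp1r1b, which encodes the striatal phosphoprotein DARPP-32, stood at 89.9 to 413 FPKM and the dopamine receptor gene Drd1 at 5.03 to 26.1 FPKM. Wfs1, expressed in CA1 and in other regions, ranged from 11.6 to 23.5 FPKM. Neurod6, listed here as a CA field pyramidal cell marker, ranged from 23.2 to 45.85 FPKM, and the dentate marker C1ql2 from 0.959 to 6.76 FPKM. The tissue is therefore called here the labelled hippocampal tissue. One library, HFD 3, stood apart. On the first principal component of all 9 libraries it lay at -58.3, against -17.0 to 29.4 for the other 8. Its 20 striatal markers summed to 1270 CPM (counts scaled to library size), against 2492 to 4925 CPM in the other 5 libraries of the comparison, and its 10 measured blood cell markers summed to 2659 CPM against 685 to 1191 CPM. The dopamine transporter gene Slc6a3 was at 11.1 CPM in HFD 3 and at 0.189 to 0.751 CPM in the other 5. Results are given with all libraries, and for some genes and lists also without HFD 3. Values given only once may depend on HFD 3 as well. The 6 libraries held 40621084 to 50385774 counts each, and the limit of 3 counts corresponded to 0.0605 to 0.0751 CPM.

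Very few genes separated the groups beyond the spread between libraries. Of 18690 genes tested, 1 (0.00535%) had an adjusted p (Benjamini-Hochberg) under 0.05 in the two-sided quasi-likelihood test of edgeR on all 9 libraries, and it was lower with IPA. At an unadjusted p under 0.05 the count was 1946 (10.4%), with 4.95% of all genes higher and 5.46% lower. Other analyses of the same counts gave larger and different sets. DESeq2 called 171 genes (0.915%), 86 higher and 85 lower, and edgeR without HFD 3 called 57 (0.305%), 29 higher and 28 lower, of which 29 were among the 171. The authors' deposited table called 46 of 15236 genes (0.302%) for IPA, 25 higher and 21 lower. None of these 46 passed in edgeR on 9 libraries, 9 passed in edgeR without HFD 3, and 35 passed in DESeq2. The plot of calls by setting shows that the choice of test and the single library HFD 3 moved the count most.

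**Figure D1:**
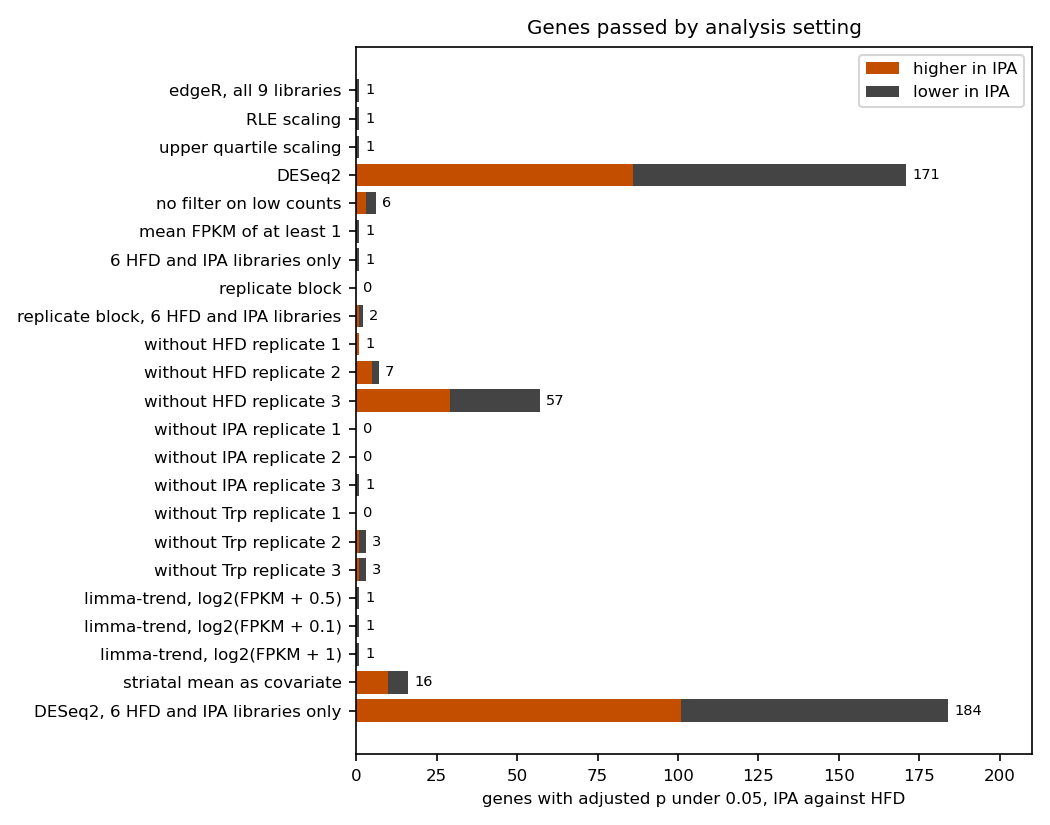
Number of genes with an adjusted p under 0.05 for IPA against HFD (horizontal axis) under each analysis setting (vertical axis), split into genes higher (orange) and lower (dark grey) with IPA. The edgeR fit on all 9 libraries passed 1 gene, the fit without HFD replicate 3 passed 57, and DESeq2 passed 171 on 9 libraries and 184 on 6.

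The gene that fell was Gm10774, annotated as a processed pseudogene of 204 bases on the minus strand of chromosome 2 (chr2:126709354-126709557, GENCODE M21 on GRCm38). It stood at 0.664, 0.585 and 0.665 CPM in HFD 1 to 3 and at 0.0250, 0.0247 and 0.0236 CPM in IPA 1 to 3, each IPA value being 1 count. The HFD group held 88 counts in all and the IPA group 3, a depth-scaled ratio of 26.0 (95% counting interval 8.62 to 129), with an edgeR adjusted p of 0.0212. All 204 bases lie within an exon, in the untranslated region of a Usp50 transcript on the same strand (Usp50, chr2:126709096-126783470), so reads of the genes cannot be told apart with certainty. Usp50, which encodes a protein of the ubiquitin-specific protease family, showed the opposite order. It stood at 0.107, 0.101 and 0.237 CPM in HFD and at 1.15, 1.13 and 1.35 CPM in IPA, without overlap, and missed the threshold (log2 fold change 3.03 ± 0.41 SE, edgeR adjusted p = 0.0537, range over 18 alternatives 5.61e-06 to 0.267). Summed over both genes, the locus gave 0.686 to 0.903 CPM in HFD, 1.16 to 1.37 CPM in IPA and 0.862 to 1.41 CPM in Trp, so the sum had the direction of Usp50. Gm10774 lost its call in the fit of the 6 compared libraries (edgeR adjusted p = 0.0585), and it passed in 13 of 21 alternatives (range 4.69e-06 to 0.240).

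Skida1, which encodes a nuclear protein with a SKI/DACH domain and was singled out here after its values were seen, had the largest fold change of the deposited calls. It stood at 10.2, 9.59 and 13.1 CPM in HFD and at 0.500, 0.271 and 0.662 CPM in IPA. The Trp libraries were split, with 0.370 and 0.665 CPM in Trp 1 and 3 and 7.88 CPM in Trp 2. With that spread in the fit the difference of -4.51 ± 1.24 (SE, log2) did not pass (edgeR adjusted p = 0.349, range over 21 alternatives 1.94e-52 to 0.794), while without Trp 2 (adjusted p = 2.06e-04) and in the fit of the 6 compared libraries (1.69e-04) it did. In that fit of 6 libraries Skida1 was the only gene that passed. DESeq2 on 9 libraries set no adjusted p for it. Skida1 therefore separated the compared groups completely but varied as much within the tryptophan group.

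**Figure D2:**
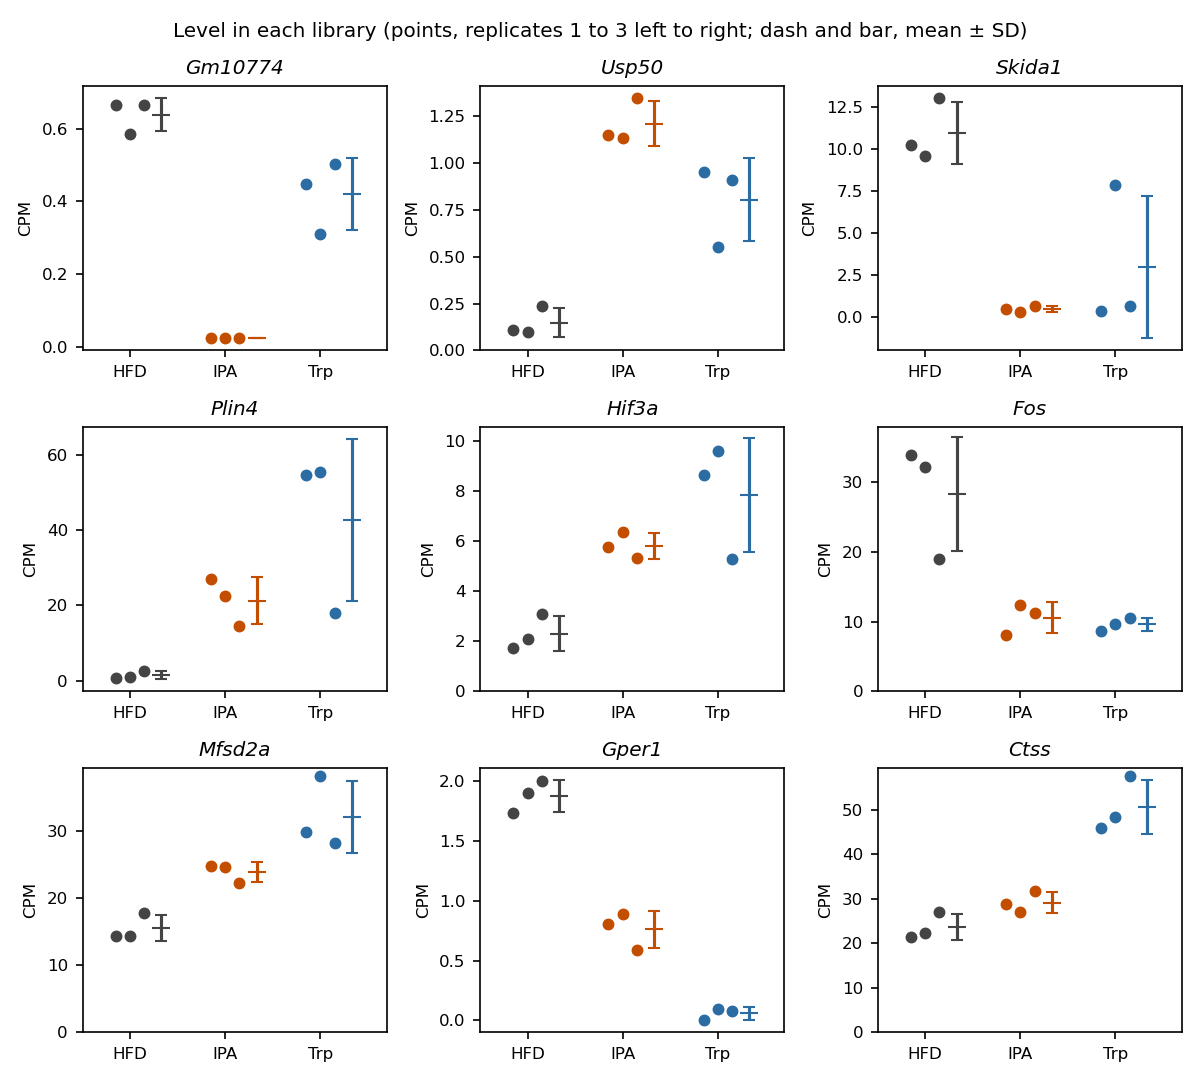
Level of 9 genes in each library, in CPM (vertical axis) for HFD, IPA and Trp (horizontal axis), with 1 point per library and the mean ± SD of 3 libraries beside it. Gm10774 was at 1 count in each IPA library, Skida1 was split within Trp, and Gper1 stood in the order HFD, IPA, Trp.

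The 12 genes of smallest p that were higher with IPA had log2 fold changes from 0.55 to 1.25. None passed in edgeR (adjusted p from 0.106 to 0.167), and all 12 passed in DESeq2. Groups that did not overlap were a condition of choosing them, met by 7.19% of all genes in this direction. Inhba, the subunit of activin A, stood at 7.5, 8.21 and 7.5 CPM in HFD and at 13.9, 12.9 and 17.5 CPM in IPA, a log2 difference of 0.93 ± 0.14 (SE). Every IPA library lay above every Trp library as well, which ranged from 9.86 to 12.2 CPM. Mme, which encodes the amyloid-degrading peptidase neprilysin, stood at 12.7, 17.4 and 9.88 CPM against 31.2, 23.5 and 31.9 CPM. Its log2 difference was 1.11, and 0.77 with the mean of the striatal markers as a covariate. Slc5a7, the high-affinity choline transporter of cholinergic neurons, was at 2.29, 4.84 and 3.78 CPM in HFD and at 9.21, 8.80 and 8.01 CPM in IPA. Its log2 difference of 1.25 ± 0.24 (SE) was the largest of the 12.

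Metabolic enzymes and transporters made up several of the others. Dio2, which activates thyroid hormone in astrocytes, was at 76.6, 99.1 and 85.9 CPM in HFD and at 122, 122 and 139 CPM in IPA. Ass1, the argininosuccinate synthase that feeds arginine synthesis, was at 15.6 to 19.7 CPM against 26.2 to 30.5 CPM. Mfsd2a, which carries lysophospholipids with docosahexaenoic acid across brain endothelium, was at 14.4, 14.3 and 17.8 CPM against 24.8, 24.7 and 22.2 CPM (log2 difference 0.63 ± 0.13 SE). HFD 3 was the highest of its HFD values, and without that library Mfsd2a passed (edgeR adjusted p = 0.0410, range over 22 alternatives 0.00238 to 0.460). The other 6 were the phagocytic receptor kinase Mertk, the GABA-B receptor auxiliary subunit Kctd8, the proteoglycan Spock3, the tubulin-binding Tppp3, the serine protease Tmprss6 and the small membrane protein Smim3. Their log2 differences lay between 0.58 (Mertk) and 1.23 (Tmprss6). Without HFD 3 the genes Smim3, Kctd8, Tppp3, Spock3, Inhba and Mme also passed in edgeR. For Trp against the same HFD libraries, the log2 difference was larger for Smim3, Mertk, Tppp3, Tmprss6 and Mfsd2a. It was smaller for Inhba, Kctd8, Mme, Dio2, Ass1, Slc5a7 and Spock3.

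The 12 genes of smallest p that were lower with IPA had log2 fold changes from -1.42 to -0.51 and edgeR adjusted p from 0.134 to 0.146. All 12 passed in DESeq2, and 8.01% of all genes had no overlap in this direction. Fos, the activity-induced AP-1 subunit, had the largest difference, at 33.9, 32.2 and 19.0 CPM in HFD and 8.11, 12.4 and 11.2 CPM in IPA. HFD 3 was the lowest HFD value, and leaving it out moved the log2 difference from -1.42 ± 0.22 (SE) to -1.64, where it passed (edgeR adjusted p = 6.64e-04, range over 22 alternatives 2.62e-07 to 0.405). Marcksl1, an actin-regulating substrate of protein kinase C that is abundant in immature neurons, stood at 112, 87.2 and 87.7 CPM against 52.1, 49.1 and 52.8 CPM. Dpysl3, a cytoskeletal protein of growing axons, was at 49.3 to 59.4 CPM in HFD and at 36.6 to 41.3 CPM in IPA. Non-overlap was a condition of choosing both.

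Genes of Wnt signalling and antigen presentation were among the other lower genes. Ctnnbip1, an inhibitor of beta-catenin, was at 59.0, 54.2 and 58.5 CPM against 40.1, 41.0 and 34.9 CPM. Wnt9a, a Wnt ligand, was at 10.4 to 12.7 CPM against 7.11 to 7.45 CPM. H2-K1, a classical MHC class I heavy chain, was at 35.1, 37.2 and 46.7 CPM against 24.5, 26.4 and 18.6 CPM. The non-classical H2-Q4 was at 5.31 to 6.37 CPM against 2.13 to 3.38 CPM, and reads of such near-identical family members may be shared. Nkx2-2, a transcription factor of the oligodendrocyte lineage, was at 3.71 to 4.32 CPM against 1.85 to 2.1 CPM. The remaining members were Mpzl1, Cdc42ep4, Ppp1r14c and Nrep, with log2 differences between -0.76 (Ppp1r14c) and -0.56 (Cdc42ep4). Without HFD 3 the genes Marcksl1, Ctnnbip1 and Wnt9a also passed in edgeR. For Trp against HFD the fall was larger for Fos, Marcksl1, Dpysl3, H2-K1, H2-Q4, Nrep and Wnt9a. It was smaller for Ctnnbip1, Mpzl1, Nkx2-2, Cdc42ep4 and Ppp1r14c. Kctd8, Dio2, Ctnnbip1, Nkx2-2, H2-Q4 and Ppp1r14c overlap exons of another annotated gene, and with no strand marking described their counts may include reads of that gene. The same holds, among genes named further on, for Nr1d1, Plin4, Jun, Junb, Bdnf, Col3a1, Alas2, Nectin2, Il1b, Ahr, Tiparp, Kyat3, Ermn, Kcnj13, Lrrtm4, Acvr1c and Zfp973.

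**Figure D3:**
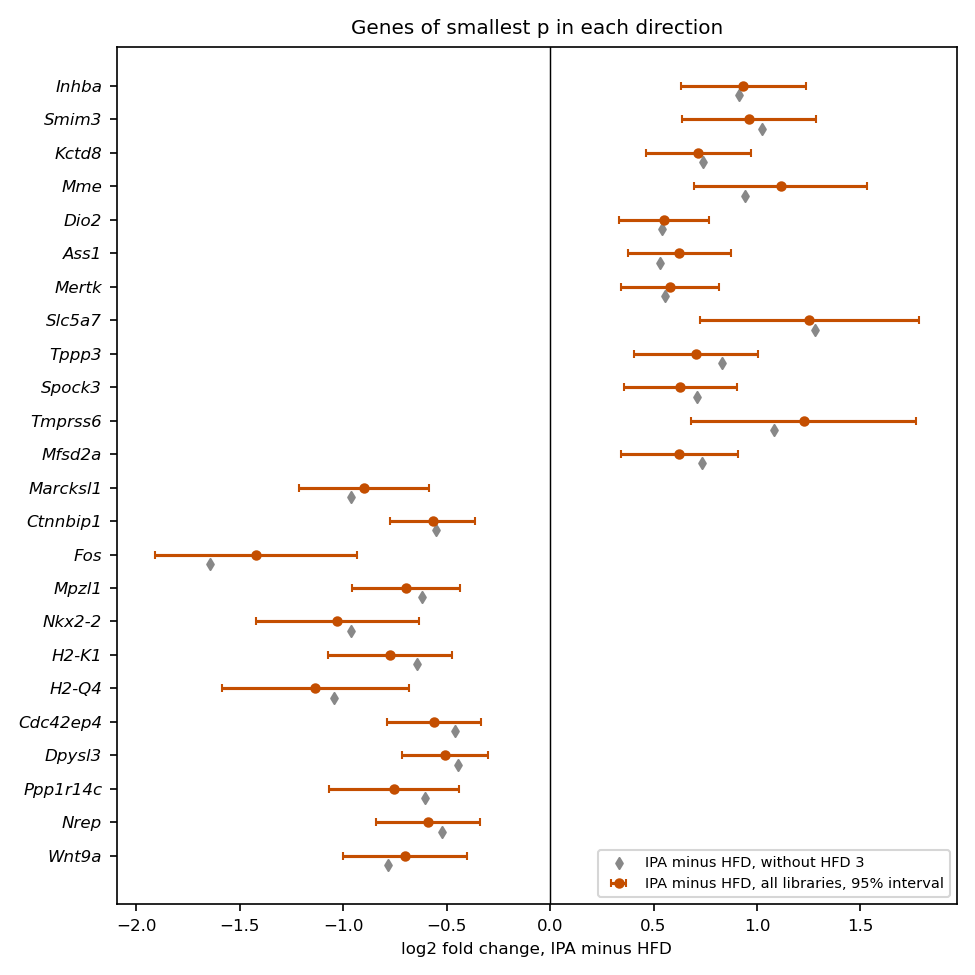
Log2 fold change of IPA minus HFD (horizontal axis) for the 12 higher and 12 lower genes of smallest p (vertical axis), with the edgeR estimate and its 95% interval from all 9 libraries (orange) and the estimate without HFD 3 (grey diamonds). Fos lies farthest below 0, and its estimate without HFD 3 lies farther still.

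Genes known to be induced by glucocorticoids stood higher with IPA. The stress hormone corticosterone binds the glucocorticoid receptor, which enters the nucleus and turns on genes such as its own co-chaperone Fkbp5. Over all genes 10.4% had an unadjusted p under 0.05 in edgeR, and DESeq2 called 0.915%. Both shares apply beside the counts of every list from here on. Of the 29 listed genes, all tested, 0 passed in edgeR (15 at an unadjusted p under 0.05). DESeq2 called 3 higher, and 24 had a positive log2 fold change, as did 48.9% of all genes. In 13 of them every IPA library was above every HFD library, against 7.19% of all genes, and 1 was apart in the lower direction. The list's median log2 fold change was 0.42 (0.46 without HFD 3), beside -0.0056 over all genes, and for Trp against the same HFD libraries it was 0.55. Mean log2(CPM + 0.5) over the list was 4.03, 4.21 and 4.48 in HFD and 4.77, 4.84 and 4.58 in IPA, with HFD 3 the highest of its group.

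Plin4, which coats lipid droplets, stood at 0.728, 0.888 and 2.64 CPM in HFD and at 26.9, 22.5 and 14.5 CPM in IPA. The groups were far apart, yet the spread within Trp (54.8, 55.5 and 18.0 CPM) and HFD was wide (log2 difference 3.93 ± 0.68 SE, edgeR adjusted p = 0.204, range over 22 alternatives 7.44e-07 to 0.623). The 3′ end of Plin4 overlaps that of Hdgfl2 on the opposite strand. Hif3a, a hypoxia-inducible factor subunit, stood at 1.73, 2.1 and 3.09 CPM against 5.78, 6.36 and 5.32 CPM, and it passed without HFD 3 (log2 difference 1.60, edgeR adjusted p = 0.0209, range over 18 alternatives 6.17e-05 to 0.449). Xdh, the xanthine dehydrogenase of purine breakdown, was at 2.50, 4.16 and 3.61 CPM against 9.06, 13.9 and 7.71 CPM (edgeR adjusted p = 0.280). Fkbp5 itself was at 32.1, 32.3 and 34.9 CPM against 54.7, 63.8 and 45.9 CPM, a log2 difference of 0.73 ± 0.25 SE (edgeR adjusted p = 0.393). IPA 3 was the lowest IPA value for all 4 of these genes.

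The promoters of 3 of these genes are shown because the genes were high in the same libraries. Each runs from 250 bases before the start site to 50 after it, from RefSeq on GRCm38.p6. Capitals mark the core of the aryl hydrocarbon response element, GCGTG or its complement CACGC. The glucocorticoid response half-site AGAACA, the full palindromic glucocorticoid response element and the cyclic AMP response half-site TGACG were also searched on both strands and were not found in these windows. Fkbp5 is at chr17:28486100-28486399, Hif3a at chr7:17062378-17062677 and Plin4 at chr17:56109733-56110032, all on the minus strand.
Fkbp5: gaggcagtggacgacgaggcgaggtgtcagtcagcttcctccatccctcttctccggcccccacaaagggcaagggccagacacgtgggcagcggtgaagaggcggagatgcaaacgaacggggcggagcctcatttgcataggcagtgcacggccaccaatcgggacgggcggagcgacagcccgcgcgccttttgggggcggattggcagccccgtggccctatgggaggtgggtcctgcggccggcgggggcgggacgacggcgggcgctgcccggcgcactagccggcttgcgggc
Hif3a: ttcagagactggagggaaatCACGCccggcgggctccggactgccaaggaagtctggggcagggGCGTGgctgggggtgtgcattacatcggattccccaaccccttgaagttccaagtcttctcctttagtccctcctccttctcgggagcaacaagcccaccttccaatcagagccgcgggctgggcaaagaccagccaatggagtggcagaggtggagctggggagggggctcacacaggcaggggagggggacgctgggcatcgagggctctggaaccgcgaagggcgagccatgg
Plin4: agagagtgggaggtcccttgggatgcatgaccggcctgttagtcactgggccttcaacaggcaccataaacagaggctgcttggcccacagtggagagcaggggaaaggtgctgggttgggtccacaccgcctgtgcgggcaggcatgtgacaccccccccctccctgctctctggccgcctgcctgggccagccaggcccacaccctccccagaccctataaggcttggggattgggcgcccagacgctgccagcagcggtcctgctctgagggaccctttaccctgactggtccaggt
Hif3a held 2 matches to the aryl hydrocarbon core and the other two held 0. Among 32851 promoter windows of this length, 32.4% held that core, 19.0% the half-site AGAACA, 20.8% TGACG and 0.00913% the full glucocorticoid element.

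Clock and lipid genes partly overlap with glucocorticoid control and were described as lists of their own. Of 20 clock genes 0 passed in edgeR (5 at an unadjusted p under 0.05), and DESeq2 called 1 higher (Cry1) and 1 lower (Nr1d1). In 3 the IPA libraries were apart above HFD (7.19% of all genes) and in 1 below (8.01%), and the median log2 fold change was 0.16. Cry1, a repressor of the clock, stood at 13.6, 17.3 and 19.2 CPM in HFD against 34.1, 26.6 and 24.3 CPM in IPA, and Per2, its partner, at 16.5 to 22.7 CPM against 26.4 to 32.6 CPM. Nr1d1, which encodes the repressor REV-ERB alpha and shares exon sequence with Thra, was at 86.0, 81.9 and 67.3 CPM against 50.4, 56.6 and 61.7 CPM. It passed without HFD 3 (edgeR adjusted p = 0.0330, range over 22 alternatives 0.0157 to 0.563). Of 29 tested genes of lipid droplets and lipolysis 0 passed in edgeR (5 at an unadjusted p under 0.05, against 10.4% of all genes). DESeq2 called 2 higher, Plin4 and Pnpla2. In this list 4 were apart above and 3 below, beside the same 7.19% and 8.01% of all genes, and the median was 0.084. Pnpla2, the lipase that starts triglyceride breakdown, was at 16.3, 16.7 and 18.7 CPM in HFD, 22.9, 24.2 and 21.4 CPM in IPA and 28.7 to 34.2 CPM in Trp, so the 3 groups did not overlap.

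Immediate early genes, which neurons switch on within minutes of activity, tended to lower values with IPA. Of 35 genes, all tested, 0 passed in edgeR (12 at an unadjusted p under 0.05), and DESeq2 called 4 lower, Fos, Jun, Junb and Ier2. Of the 35, 28 had a negative log2 fold change (51.1% of all genes) and the median was -0.34 (-0.33 without HFD 3). For Trp against the same HFD libraries the median was -0.425. Of these 35, 3 were apart below HFD and 1 above, beside 8.01% and 7.19% of all genes. The 1 above was Homer1, at 154, 222 and 195 CPM in HFD and at 244, 226 and 308 CPM in IPA. Its log2 difference of 0.44 ± 0.14 SE was the highest of the list (edgeR adjusted p = 0.341). Junb, an AP-1 subunit, stood at 60.2, 54.7 and 28.7 CPM in HFD and at 21.2, 32.7 and 27.9 CPM in IPA, overlapping through HFD 3. Egr4, a zinc-finger factor, overlapped in the same way at 27.2, 33.9 and 15.5 CPM against 12.1, 18.0 and 17.5 CPM. Both passed without HFD 3, at edgeR adjusted p of 0.0148 for Junb (range over 22 alternatives 0.0148 to 0.813) and 0.0330 for Egr4 (0.0229 to 0.815). Jun was at 40.5, 33.9 and 34.2 CPM against 27.4, 27.7 and 25.4 CPM, without overlap (edgeR adjusted p = 0.191). Ier2 was at 13.8, 8.01 and 5.65 CPM against 3.03, 5.89 and 3.38 CPM, with HFD 3 inside the IPA range. Bdnf, the neurotrophin whose transcription follows activity, was at 25.1, 26.1 and 35.4 CPM against 22.1, 25.1 and 27.2 CPM, a log2 difference of -0.22 ± 0.15 SE (edgeR adjusted p = 0.644).

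The Fos promoter (chr12:85473640-85473939, plus strand, GRCm38.p6) is shown because Fos had the largest difference of the 24 named genes. Capitals mark the cyclic AMP response half-site TGACG and the aryl hydrocarbon core, written here as CACGC.
Fos: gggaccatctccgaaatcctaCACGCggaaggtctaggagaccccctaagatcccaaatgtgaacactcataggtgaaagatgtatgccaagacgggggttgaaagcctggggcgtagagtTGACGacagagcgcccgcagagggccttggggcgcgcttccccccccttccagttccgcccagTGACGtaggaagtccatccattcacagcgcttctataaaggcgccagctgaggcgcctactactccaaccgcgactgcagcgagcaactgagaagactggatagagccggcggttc
The window held 2 matches to TGACG and 1 to the aryl hydrocarbon core, and the matches did not overlap each other. It held 0 matches to AGAACA and 0 to the palindrome TGACGTCA, which 1.79% of all windows hold.

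Genes of adult neurogenesis also stood lower. Newborn granule cells arise from Nestin-positive progenitors of the dentate gyrus. Of 26 listed genes, all tested, 0 passed in edgeR (13 at an unadjusted p under 0.05), and DESeq2 called 3 lower, Nes, Dpysl3 and Calb2. Of the 26, 22 had a negative log2 fold change (51.1% of all genes) and 10 were apart below HFD (8.01% of all genes). The median was -0.35 (-0.28 without HFD 3), and for Trp against the same HFD libraries it was -0.40. Nes, the progenitor filament, was at 10.2, 12.5 and 11.5 CPM against 8.36, 7.57 and 7.71 CPM. Neurog2, a proneural factor, was at 1.11, 0.545 and 1.26 CPM against 0.400, 0.247 and 0.213 CPM. Neither passed in edgeR, at adjusted p of 0.231 for Nes and 0.296 for Neurog2. The list shares Dpysl3, named above, and the dentate list below shares Marcksl1 and Jun. Calb2 is also a member of the interneuron list and of the thalamus and habenula list, so its call is not particular to newborn neurons. The dentate granule cell list had a median of -0.23 (-0.16 without HFD 3) with 4 of 20 apart below and 1 above (7.19% of all genes). Marcksl1 and Jun were among those below. CA field pyramidal cell markers had a median of -0.15 (-0.083 without HFD 3) with 2 of 21 below and 1 above. None of either list passed in edgeR (3 and 5 at an unadjusted p under 0.05, against 10.4% of all genes). DESeq2 called 2 members of the dentate list, Marcksl1 and Jun, and 0 CA field markers. Marcksl1 is described above as abundant in immature neurons, and Jun is also an immediate early gene. Their calls are therefore not particular to mature granule cells.

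Vascular genes lay lower in the IPA libraries across most of their lists, without passing in edgeR. In bulk tissue, fewer cells of a type and less RNA per cell cannot be told apart. Of 22 endothelial markers, all tested, 0 passed in edgeR (13 at an unadjusted p under 0.05, against 10.4% of all genes). DESeq2 called 2 lower, Kdr and Ets1 (0.915% of all genes in both directions). Of the 22, 21 had a negative log2 fold change (51.1% of all genes) and 14 were apart below HFD, against 8.01% of all genes. Their median was -0.34 with all libraries and -0.32 without HFD 3, and for Trp against the same HFD libraries it was -0.28. The 15 mural cell markers, of pericytes and smooth muscle, had 14 negative values, 7 apart below and a median of -0.41 (-0.39 without HFD 3). The 16 meningeal fibroblast markers had 13 negative values, 5 apart below and a median of -0.94, which moved to -0.37 without HFD 3. Trp against HFD gave medians of -0.098 for mural and -0.32 for fibroblast markers. None of either list passed in edgeR (7 and 8 at an unadjusted p under 0.05), and DESeq2 called 1 mural gene, Myh11, and 2 fibroblast genes, Col1a1 and Col3a1.

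Kdr, the VEGF receptor of endothelium, stood at 8.16, 7.59 and 7.15 CPM in HFD and at 5.25, 3.65 and 4.78 CPM in IPA (log2 difference -0.74 ± 0.19 SE, edgeR adjusted p = 0.259). The transcription factor Ets1 was at 8.65, 9.61 and 10.3 CPM against 5.48, 6.39 and 6.83 CPM, and the receptor phosphatase Ptprb at 28.5, 36.1 and 36.5 CPM against 26.2, 25.0 and 26.7 CPM. Both were apart, and HFD 3 was the highest value of each. Of the mural markers, the smooth muscle myosin Myh11 was at 5.95 to 8.79 CPM against 4.47 to 5.15 CPM. The proteoglycan Cspg4 was at 12.3 to 12.5 CPM against 8.46 to 9.76 CPM. The actin Acta2 was at 8.76 to 17.1 CPM against 6.61 to 8.53 CPM. Its log2 difference of -0.73 moved to -0.40 without HFD 3. The collagen genes Col3a1 (1.43 to 4.35 CPM against 0.567 to 1.09 CPM) and Col1a1 (1.45 to 4.06 CPM against 0.567 to 1.43 CPM) were highest in HFD 3. The fibroblast GABA transporter Slc6a13 was at 3.15, 2.08 and 3.68 CPM against 1.43, 2.07 and 1.21 CPM.

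Blood cell markers lay lower alongside the vascular lists, without passing in edgeR. Of 16 listed, 10 were tested, 6 were apart below HFD (8.01% of all genes) and 1 above (7.19%). The median of -1.79 moved to -0.98 without HFD 3, and for Trp against HFD it was -1.44. In edgeR 6 had an unadjusted p under 0.05, and DESeq2 called 2, Hba-a1 and Hba-a2. The alpha-globin genes Hba-a1 (145, 175 and 459 CPM in HFD against 63.3, 86.1 and 56.8 CPM in IPA) and Hba-a2 (101, 119 and 328 CPM against 44.5, 61.1 and 42.3 CPM) are near-identical copies whose reads may be shared. Alas2, the erythroid heme synthesis enzyme, was at 5.70, 9.10 and 19.7 CPM against 3.75, 3.90 and 2.69 CPM. The part of blood in the vascular, fibroblast and interferon values was not tested.

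Barrier genes lay on both sides. Of 26 transport genes of the blood-brain barrier 3 were apart above (7.19% of all genes) and 7 below (8.01%), with a median of -0.082. Of 21 genes of tight and adherens junctions 0 were apart above and 4 below, with a median of 0.025. None of either list passed in edgeR (8 and 3 at an unadjusted p under 0.05, against 10.4% of all genes). DESeq2 called 3 transport genes, Mfsd2a, Slc16a1 and Slc22a8, and 1 junction gene, Nectin2. Besides Mfsd2a, named above as higher, the organic anion transporter Slc22a8 was at 7.62, 6.90 and 8.50 CPM against 4.28, 5.38 and 4.42 CPM, and the monocarboxylate transporter Slc16a1 at 42.1, 43.0 and 68.8 CPM against 34.7, 30.4 and 30.6 CPM. Cldn5, the main claudin of brain endothelium, was at 30.5, 23.7 and 21.2 CPM against 14, 19.1 and 16.5 CPM (log2 difference -0.60 ± 0.19 SE, edgeR adjusted p = 0.349). Nectin2, an adhesion molecule, was at 5.75 to 6.89 CPM against 2.78 to 3.28 CPM. Ocln and Tjp1, which encode occludin and ZO-1, overlapped between the groups, with 95% intervals of the log2 difference from -0.43 to 0.38 for Ocln and from -0.15 to 0.34 for Tjp1.

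Immune genes split by program. Interferon-stimulated genes had a median of -0.41, which moved to -0.23 without HFD 3 and was -0.28 for Trp against HFD. They had 26 negative values among 30 tested, with 11 apart below HFD (8.01% of all genes) and 0 above. Among them Gbp3, a guanylate-binding GTPase, was at 6.55, 6.64 and 7.32 CPM against 3.68, 4.29 and 3.95 CPM (log2 difference -0.78 ± 0.16 SE, edgeR adjusted p = 0.148). The antiviral Oasl2 was at 2.55 to 2.90 CPM against 1.08 to 1.77 CPM, and Ifi44 at 0.827 to 1.45 CPM against 0.300 to 0.567 CPM. Of 20 genes of MHC class I and peptide loading 15 had a negative value and 7 were apart below. Their median of -0.26 moved to -0.16 without HFD 3 and was -0.18 for Trp against HFD. H2-D1 was at 40.3, 39.8 and 47.7 CPM against 28.8, 34.3 and 28.6 CPM. None of either list passed in edgeR (12 and 5 at an unadjusted p under 0.05). DESeq2 called 1 interferon gene, Gbp3, and 3 of MHC class I, H2-K1, H2-D1 and H2-Q4.

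Microglial markers overlapped between IPA and HFD in most members. Of 25, all tested, 0 passed in edgeR (1 at an unadjusted p under 0.05) or in DESeq2, 2 were apart above HFD (7.19% of all genes) and 0 below (8.01%), and the median was 0.062. The lysosomal protease Ctss was at 21.4, 22.4 and 27.0 CPM in HFD and at 28.8, 27.0 and 31.7 CPM in IPA, and the calcium-binding Aif1 at 3.47 to 4.03 CPM against 3.52 to 4.34 CPM. Of 19 complement genes 0 passed in edgeR (1 at an unadjusted p under 0.05) or in DESeq2. Of these 19, 15 had a positive value (48.9% of all genes), 4 were apart above and the median was 0.20, with the receptor C5ar1 at 0.238 to 0.407 CPM against 0.419 to 0.676 CPM and C3 at 0.525 to 0.736 CPM against 0.827 to 1.28 CPM. Il1b was at 0.407, 0.242 and 0.380 CPM against 0.175, 0.123 and 0.166 CPM (log2 difference -1.13 ± 0.45 SE, edgeR adjusted p = 0.442), and Tnf had 0 to 3 counts per library. Gfap, the astrocyte filament, was at 181, 122 and 294 CPM against 123, 136 and 118 CPM. Its log2 difference of -0.66 moved to -0.27 without HFD 3. The 18 astrocyte markers had a median of -0.017 (0.090 without HFD 3).

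**Figure D4:**
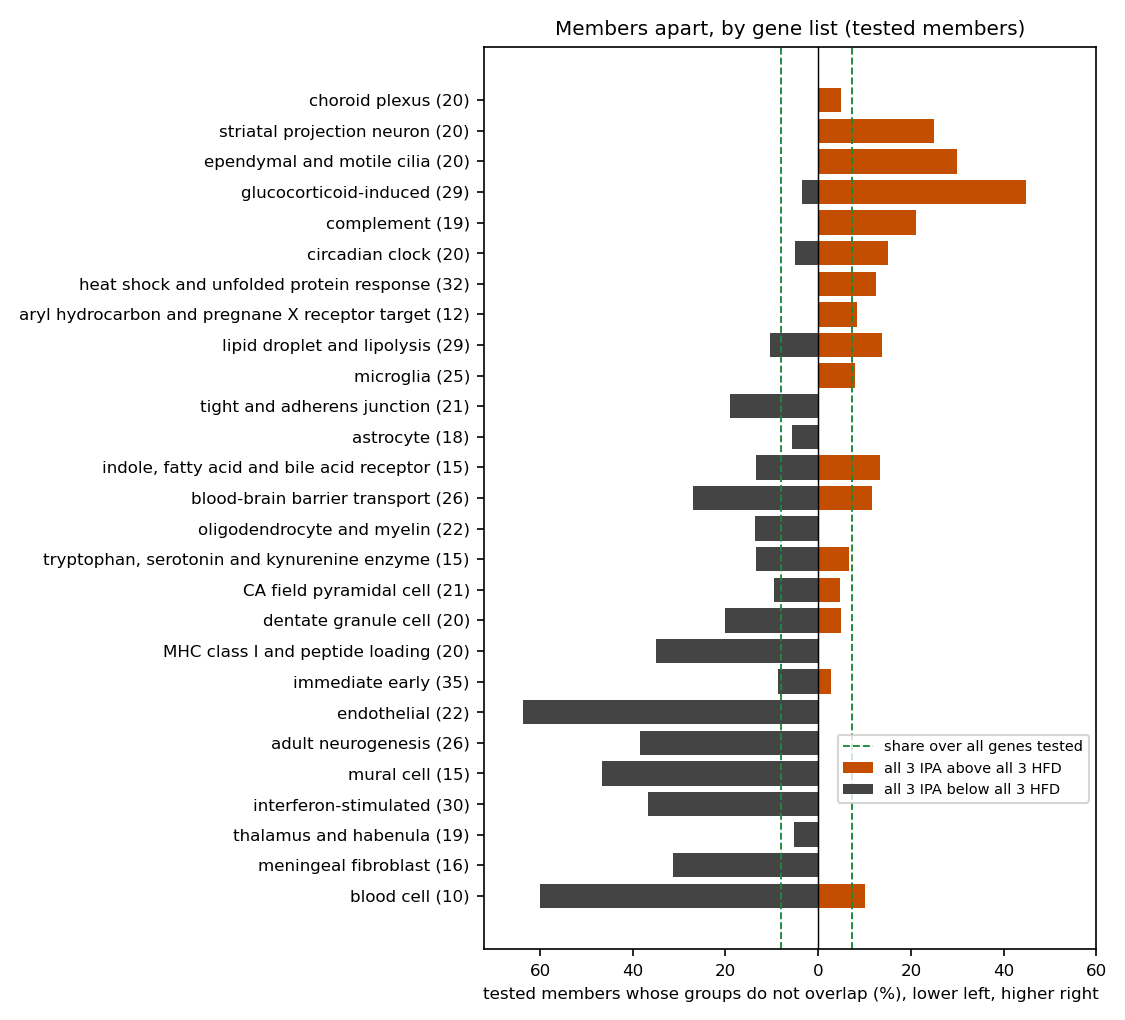
Share of tested members (horizontal axis, percent) whose 3 IPA values all lay above (right, orange) or all below (left, dark grey) the 3 HFD values, for 27 gene lists (vertical axis, number tested in parentheses) ordered by median log2 fold change. Dashed lines mark the 7.19% and 8.01% of all genes, and the endothelial, blood, mural and glucocorticoid-induced lists extend farthest beyond them.

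The mixed list of receptors for indoles, fatty acids and bile acids had a median near that of all genes. Of 24 receptors for indoles, fatty acids and bile acids 15 were tested and 0 passed in edgeR (3 at an unadjusted p under 0.05), while DESeq2 called 1 lower, Gper1. Of the 15, 2 were apart above (7.19% of all genes) and 2 below (8.01%), and the median was -0.025. Gper1, a membrane estrogen receptor, was at 1.73, 1.90 and 2.00 CPM in HFD and at 0.801, 0.888 and 0.591 CPM in IPA (log2 difference -1.30 ± 0.38 SE, edgeR adjusted p = 0.322). The retinoid partner receptor Rxra was at 28.1 to 28.8 CPM against 33.6 to 36.3 CPM, and the lactate receptor Hcar1 at 0.300 to 0.618 CPM against 0.0709 to 0.300 CPM. Ahr, the aryl hydrocarbon receptor itself, was at 8.76, 8.07 and 8.98 CPM against 7.83, 6.76 and 8.39 CPM (95% interval of the log2 difference -0.45 to 0.12). Nr1i2, the pregnane X receptor, had 0 counts in every library, which allows up to 0.0605 to 0.0751 CPM. The short-chain fatty acid receptor Ffar3 had 0 to 19 counts per library and a log2 difference of -0.67 with a 95% interval from -2.79 to 1.45 (edgeR adjusted p = 0.844). Its relative Ffar2, at 0 to 4 counts, was under the filter and was not tested.

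Targets of these receptors and the tryptophan enzymes overlapped between the groups in most members. Of 22 targets of the aryl hydrocarbon and pregnane X receptors 12 were tested, with 1 apart above (7.19% of all genes), 0 below (8.01%) and a median of 0.092. None passed in edgeR, where 0 had an unadjusted p under 0.05, or in DESeq2. Tiparp, a feedback repressor induced by the aryl hydrocarbon receptor, was at 17.1, 25.6 and 24.4 CPM against 28.1, 23.7 and 23.4 CPM (95% interval of the log2 difference -0.16 to 0.49). Cyp1b1, an induced oxidase, was at 2.14, 1.70 and 3.44 CPM against 1.63, 2.1 and 1.02 CPM, and Cyp1a1, the classical target, had 0 to 11 counts. Of 15 tested enzymes of tryptophan, serotonin and kynurenine metabolism 1 was apart above and 2 below, and 0 passed in edgeR (1 at an unadjusted p under 0.05) or in DESeq2. Kyat3, which turns kynurenine into kynurenic acid, was the one above, at 4.23 to 5.75 CPM against 6.43 to 7.09 CPM.

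Protein-folding genes leaned upward by small amounts. Of 32 genes of heat shock and the unfolded protein response 29 had a positive log2 fold change (48.9% of all genes), with a median of 0.15 (0.24 without HFD 3), and 4 were apart above (7.19% of all genes). None passed in edgeR (9 at an unadjusted p under 0.05) or in DESeq2. The endoplasmic reticulum chaperone Hspa5 was at 197, 220 and 288 CPM against 256, 362 and 385 CPM. The sensor Atf6 was at 60.2 to 81.4 CPM against 86.9 to 113 CPM, and the degradation factor Herpud1 at 38.8 to 47.5 CPM against 49.7 to 54.9 CPM. Myelin genes depended on HFD 3. The 22 oligodendrocyte markers had a median of -0.13 with all libraries and 0.26 without it. HFD 3 was the highest HFD library for Mbp (4718, 5049 and 7356 CPM in HFD against 3890 to 4789 CPM in IPA), Ermn (39.3, 44.6 and 111 CPM against 88.7 to 100.1 CPM) and Myrf (24.3, 26.8 and 45.7 CPM against 42.3 to 47.3 CPM). Ermn, a cytoskeletal protein of myelin, and Myrf, the myelin regulatory factor, passed without HFD 3 at edgeR adjusted p of 0.0330 (range over 22 alternatives 0.0330 to 0.938) and 0.0237 (0.0237 to 0.871).

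Markers of neighbouring tissue had shifted medians between the groups, and 0 of them passed in edgeR. DESeq2 called Lrrc10b, Tekt4 and Calb2 among them. All 20 striatal projection neuron markers had a positive log2 fold change (48.9% of all genes), with a median of 0.72 (0.40 without HFD 3) and 5 apart above (7.19% of all genes). Their mean log2(CPM + 0.5) was 6.12, 6.73 and 5.12 in HFD and 6.68, 6.76 and 7.07 in IPA, which overlapped. Drd1 was at 44.4, 88.7 and 20.5 CPM against 82.0, 70.9 and 102 CPM, Lrrc10b at 49.8 to 110 CPM against 131 to 142 CPM and Isl1 at 4.37 to 5.81 CPM against 5.92 to 7.92 CPM. All 20 choroid plexus markers were positive too, with a median of 0.96 (1.95 without HFD 3) and 1 apart. Ttr, the transthyretin of choroid epithelium, ranged from 113 to 642 CPM in HFD and from 257 to 1087 CPM in IPA, and the potassium channel Kcnj13 from 0.605 to 2.85 CPM and from 1.65 to 5.70 CPM. Of 20 ependymal and cilia markers 19 were positive with a median of 0.62, with the cilia regulator Foxj1 at 4.24 to 6.15 CPM against 5.08 to 10.5 CPM. Tekt4, a cilia tektin, was at 0.578, 0.706 and 1.16 CPM against 2.68, 2.02 and 1.84 CPM and passed without HFD 3 (edgeR adjusted p = 0.0196, range over 22 alternatives 0.00111 to 0.450). Thalamic and habenular markers had a median of -0.49 with all libraries and 0.12 without HFD 3. With the striatal mean as a covariate 16 genes passed in edgeR, 10 higher and 6 lower; the part of tissue makeup in the single gene values was not tested further. The remaining 19 lists had medians between -0.63 and 0.14, and 0 of their members passed in edgeR. DESeq2 called 9 of their members and edgeR without HFD 3 called 1, Mme. A small one-sided lean also occurred among these lists. Of 51 cytosolic ribosomal protein genes, 50 had a negative and 1 a positive log2 fold change (51.1% of all genes were negative). Their median was -0.11 (-0.052 without HFD 3), and 4 were apart below (8.01% of all genes).

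**Figure D5:**
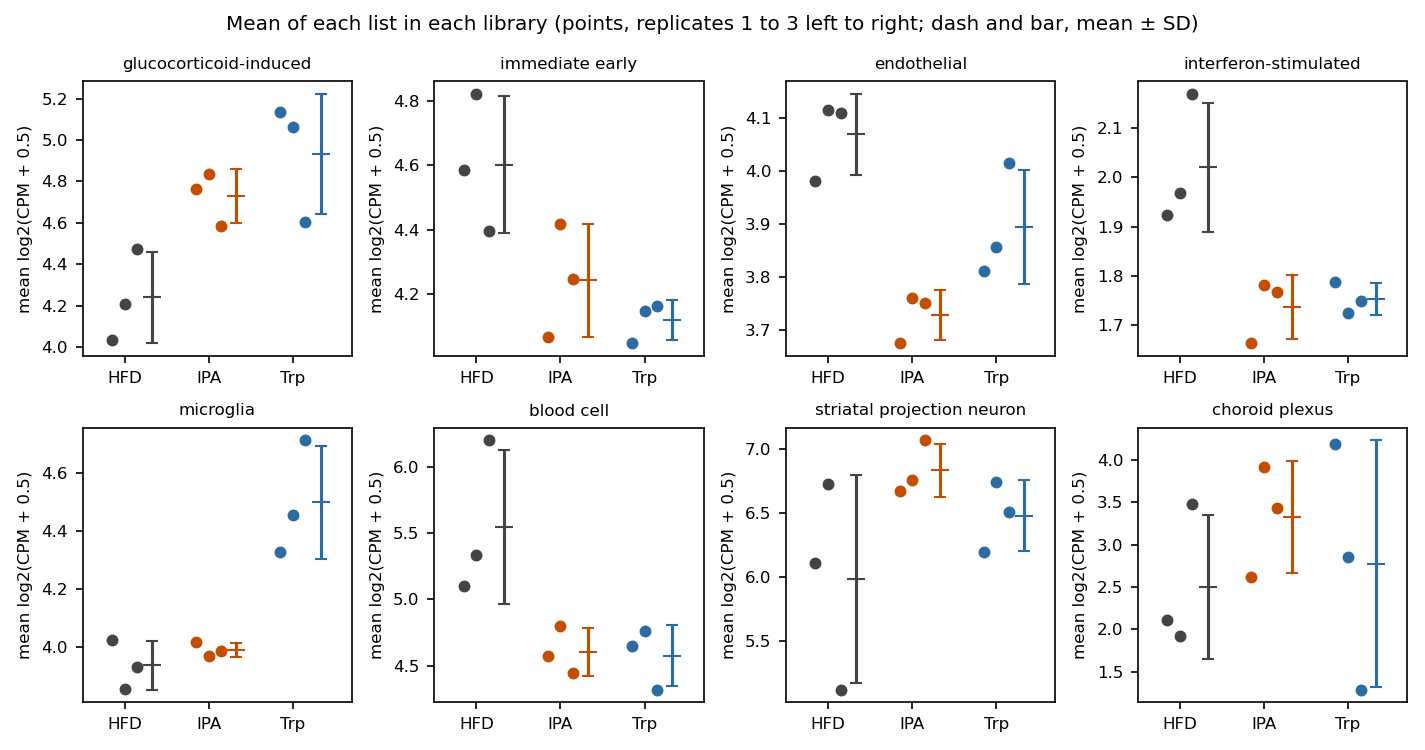
Mean log2(CPM + 0.5) over 8 gene lists (vertical axis) in each library of HFD, IPA and Trp (horizontal axis), with 1 point per library and the mean ± SD of 3 libraries. Glucocorticoid-induced genes lie above and endothelial, interferon and blood genes below in all 3 IPA libraries relative to all 3 HFD libraries, microglial genes lie higher in the 3 Trp libraries than in the other 6, and the striatal and choroid plexus means overlap between HFD and IPA.

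The direct test of IPA against Trp asked whether gavage of the metabolite differed from feeding its precursor. Compound and route changed together, so their parts cannot be told apart. In edgeR 0 of 18690 genes passed (0%), with 840 (4.49%) at an unadjusted p under 0.05, and DESeq2 called 15 (0.0803%), 1 higher and 14 lower with IPA. Against HFD, the Trp libraries gave 64 genes in edgeR (0.342%), with 8.06% of all genes apart above HFD and 7.43% below. They share the HFD libraries with the IPA comparison, so both sets of values are only given side by side. The one gene higher in DESeq2 was Gper1, at 0, 0.0958 and 0.0806 CPM in Trp against 0.591 to 0.888 CPM in IPA (log2 difference 3.68 ± 0.54 SE, edgeR adjusted p = 0.102, range over 15 alternatives 1.36e-05 to 0.672). Its Trp values were 0, 4 and 4 counts, near the limit of 3 counts, so the size of this difference is uncertain. Gper1 thus stood in the order HFD, IPA, Trp with no overlap between neighbours.

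Microglial genes made up most of the lower side. All 25 microglial markers had a negative log2 fold change for IPA minus Trp (51.9% of all genes) with a median of -0.52, and in 22 of them every IPA library was below every Trp library, against 5.61% of all genes. Ctss was at 27.0 to 31.7 CPM in IPA and at 45.9, 48.4 and 57.5 CPM in Trp (log2 difference -0.80 ± 0.12 SE, edgeR adjusted p = 0.102, range over 19 alternatives 1.36e-05 to 0.788). The Fc receptor Fcgr3 was at 10.7 to 11.2 CPM against 16.5 to 17.8 CPM, the P-selectin ligand Selplg at 11.8 to 13.8 CPM against 19.3 to 22.8 CPM and the complement subunit C1qb at 34.4 to 40.2 CPM against 51.6 to 67.3 CPM. Zfp973, a zinc-finger gene, was at 1.85 to 2.17 CPM against 4.07 to 6.14 CPM. On the higher side stood the synaptic scaffold Homer1 (226 to 308 CPM against 169 to 183 CPM), the synaptic adhesion gene Lrrtm4 (37.2 to 39.3 CPM against 28.8 to 31.7 CPM), the activin-family receptor Acvr1c (33.2 to 34.9 CPM against 22 to 26.3 CPM), the lipid transfer gene Osbpl8 (104 to 134 CPM against 79.0 to 90.9 CPM) and Spock3 (194 to 254 CPM against 140 to 171 CPM). Non-overlap was a condition of choosing Ctss, Fcgr3, Selplg, C1qb and Zfp973 on the lower side. The same condition chose the 5 on the higher side, and 5.55% of all genes met it in this direction (48.1% have a positive log2 fold change). None of these 5 passed in edgeR (adjusted p = 0.987 for each) or in DESeq2.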

How the data were processed

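RNA was enriched for poly(A) transcripts with oligo(dT) beads, per the labels' protocols, which describe no strand marking. For each of 9 libraries the deposited table held read counts per gene and FPKM values made by the authors. StringTie 2.1.3b and mm10 appear in the submitters' processing notes. Which aligner, counter, annotation and statistical test were used is not given in the sources used here. The authors' own columns of log2 fold change, p-value and q-value were read as deposited, and their calls had a q-value under 0.05 and a fold beyond 2. The coordinates in the table differ from those of GRCm38, so coordinates printed here come from GENCODE M21 and RefSeq on GRCm38.

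Of 54513 genes, 18690 passed filterByExpr (minimum count 10). Counts were fitted with edgeR 4.0.16 (R 4.3.3; TMM scaling, robust quasi-likelihood) on all 9 libraries, with two-sided contrasts and Benjamini-Hochberg adjustment over all genes tested. Levels are CPM on TMM-scaled library sizes. Alternatives used DESeq2 1.42.0, limma 3.58.1 on log2(FPKM + 0.5), other scalings, filters and libraries. With 3 libraries a group, the smallest p an exact permutation test allows is 0.1. Named genes were any that passed, then the 12 of smallest p in each direction with mean FPKM of at least 1 and groups that did not overlap, leaving out pseudogenes and predicted genes, with 5 per direction for IPA against Trp, up to 3 members of smallest p per list, and a set of indole, barrier, glial and stress genes. Skida1, Usp50, Slc6a3, Junb, Egr4, Ermn, Myrf and some list members were named after their values were seen. The comparison, its 46 lists (1029 genes, 970 tested) and the tests were chosen with earlier results of these data known. The calculation was tested on simulated data. The 6 libraries compared held 40621084 to 50385774 counts each, and intervals on counts cover counting error only. Figures were drawn with matplotlib 3.10.9 in Python 3.11.15.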

Additional observations from a re-analysis of the deposited data

How the results depend on the processing

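The count of genes passed for IPA against HFD (1) moved most with the tool and with HFD 3. It was 171 with DESeq2, 6 without a filter on low counts, 16 with the striatal mean as a covariate, 2 at an adjusted p under 0.1, 0 at 0.01, and 0 to 57 with 1 library left out, the highest being without HFD 3. DESeq2 on the 6 compared libraries, an alternative chosen after seeing the data, gave 184. For IPA against Trp (0) it was 15 with DESeq2, 3 without the filter, 1 at a mean FPKM of at least 1, 2 in limma at each of 3 pseudocounts, and 0 to 1 with 1 library left out. For Trp against HFD (64) it was 309 with DESeq2, 97 without the filter, 239 with the striatal covariate, 119 at an adjusted p under 0.1, 12 at 0.01, and 13 (without Trp 2) to 327 (without HFD 3) with 1 library left out.

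With the replicate number as a block, IPA against HFD gave 0 genes on 9 libraries and 2 on 6, and Trp against HFD gave 23. Same-numbered HFD and IPA libraries had deviations correlated at -0.061, -0.12 and -0.20. The labels name no shared animal or day, so whether same-numbered samples share more than a number is not known.

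With the striatal covariate the log2 fold change became 0.14 for Zfp973, 0.18 for Ocln, 0.017 for Bdnf, -0.098 for Drd1, 0.045 for Gfap and 0.77 for Slc6a3, each a reversed sign. Ocln was also above 0 in limma, at 0.019, 0.026 and 0.014 for pseudocounts of 0.5, 0.1 and 1. With 1 library left out Ocln ranged from -0.16 to 0.15, Lrrtm4 from -0.062 to 0.0051 and Aif1 from -0.038 to 0.12. List medians with the striatal covariate were -0.013 for microglia, 0.39 for oligodendrocytes, -0.15 for meningeal fibroblasts, 2.49 for choroid plexus, 0.0041 for striatal neurons, 0.42 for thalamus, 0.11 for dentate granule cells, -0.82 for blood, 0.12 for tryptophan enzymes, -0.20 for interferon and 0.23 for lipid droplet genes. In limma with pseudocounts of 0.5, 0.1 and 1 the fibroblast median was -0.26, -0.30 and -0.22 and the tryptophan enzyme median 0.11, 0.11 and 0.10. The interferon median was -0.27 at 0.5 and -0.23 at 1, and at 1 the endothelial median was -0.26 and the complement median 0.053. At a mean FPKM of at least 1 the fibroblast median was -0.32 and the tryptophan enzyme median 0.12. Leaving out 1 library gave medians from -0.28 to 0.26 for oligodendrocytes, -1.18 to -0.37 for fibroblasts, 0.59 to 1.95 for choroid plexus, -2.12 to -0.98 for blood, -0.40 to 0.011 for tryptophan enzymes and -0.45 to -0.23 for interferon genes. Apart from the values given here, the cause of a move was not tested. Fits of the 6 compared libraries give no value for comparisons with Trp. Genes under the filter, among them Nr1i2, Ffar2, Tnf and Cyp1a1, could not be compared at this depth.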
